A study of Mus musculus with 10 samples.

Results

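The D-type cyclins, the kinases of the G1 phase and their inhibitors were followed in RAW264.7 cells, a mouse macrophage-like line from a tumor induced with Abelson leukemia virus. The 9 genes were chosen by name (*Ccnd1*, *Ccnd2*, *Ccnd3*, *Cdk4*, *Cdk6*, *Cdkn1a*, *Cdkn1b*, *Rb1* and *Myc*) and all 9 were found among the 43432 genes of the count table. RNA was sequenced from 5 conditions with 2 libraries each. One was solvent alone (DMSO, 0.5%), one was solvent with lipopolysaccharide, a component of bacterial outer membranes, at 1 µg/mL (DMSO + LPS), and the other three were compound 1, an unsaturated fatty acid with a keto group (the 7(E)-9-keto-hexadec-7-enoic one), at 3.2, 10 or 32 µM with the same LPS. All cells carried the transformed background of the line, compound or solvent preceded LPS, RNA was extracted after 12 h, and no condition held compound 1 without LPS. The labels number the libraries of a condition as biological replicates 1 and 2, but no source says that they came from separate passages or days, so p-values measure the spread between these libraries. The comparisons ask how LPS changed the G1 genes and how compound 1 changed them in LPS-treated cells.

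D-type cyclins link growth signals to the cell cycle. Each binds CDK4 or CDK6, and the active kinase phosphorylates the retinoblastoma protein Rb, which then releases E2F factors that turn on genes for DNA synthesis. The inhibitors p21 (*Cdkn1a*) and p27 (*Cdkn1b*) bind cyclin-CDK complexes, and Myc is a growth-promoting transcription factor that raises or lowers many genes of this network. Macrophages given LPS are known to slow their division while they take up inflammatory transcription.

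Library totals lay between 45966803 and 58976377 counts, so that 5 CPM (the count relative to the total of its library) carried a counting error of at most 6.60%. The LPS labels were borne out by the cytokine, chemokine and nitric oxide synthase genes *Ccl2*, *Tnf*, *Il1b*, *Il6* and *Nos2*, which were all higher, *Ccl2* by 37.0-fold and *Tnf* and *Il1b* by more. *Nos2* had 2 and 0 counts in DMSO and 11999 and 9463 under LPS alone, and *Il6* went from 0 and 0 to 5420 and 4648. The 8 macrophage markers were all detected, with a summed level of 9727 to 10625 CPM in DMSO, 6929 to 6961 in DMSO + LPS and 5309 to 5728 at 32 µM. The lower sum with LPS came from *Lyz2* (log2 -0.65) and *Csf1r* (-1.48), whereas 5 of the 8 markers rose with LPS (median log2 change of the 8, 0.66). T cell and B cell markers summed to at most 0.354 CPM in any library. Each of 2 libraries stood apart. One was replicate 1 at 10 µM, which held transcripts of epithelial cells (*Krt8* 1039 counts against 2 in replicate 2, *Epcam* 451 against 1, *Cdh1* 200 against 0). Its 4 epithelial markers summed to 38.2 CPM, those of replicate 1 at 3.2 µM to 5.78, and those of the other libraries to at most 0.085. Fibroblast markers summed to 4.43 CPM in the same 10 µM library and to at most 0.798 elsewhere. Results at 10 µM are therefore given without it too where the call, the direction or the size (by over 1.5 times) changed. The other was replicate 2 at 32 µM, in which *Gm42418*, a transcript at a ribosomal RNA unit, took 2.46% of counts against at most 0.207% elsewhere, and annotated ribosomal RNA took 0.247% against at most 0.160%. Without it the log2 change at 32 µM from DMSO + LPS was -0.29 for *Ccnd3* and -0.24 for *Cdkn1a*, near the values with it. Both genes lost their calls, as they also did without 32 µM replicate 1 or DMSO + LPS replicate 2, and *Ccnd1* kept its call. The part of either set of transcripts in the results was not tested.

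A gene passed when its Benjamini-Hochberg adjusted p in edgeR's quasi-likelihood test, over 14172 genes, was below 0.05. The smallest p that an exact permutation test allows for 2 libraries against 2 is 0.333, and the tests therefore draw on a spread shared by all conditions and genes. The filter on low counts let a gene through when it reached 0.204 CPM in enough libraries of any condition, and *Ccnd2* did not reach it in DMSO. Among genes that reached it in both groups, LPS changed 7 of the other 8 members, against 52.3% of all such genes. *Cdk6*, *Cdkn1a* and *Myc* rose (3 of 8, against 24.8% higher) and *Ccnd1*, *Cdk4*, *Cdkn1b* and *Rb1* fell (4 of 8, against 27.6% lower). Of the 7, 5 also changed at least 1.5-fold, as did 27.3% of such genes. With *Ccnd2* and all other tested genes included, 8 of 9 members passed (50.9% of all genes) and 6 also changed at least 1.5-fold (28.1%). Compound 1 at 32 µM changed 3 of the 9 relative to DMSO + LPS (9.78% of all genes), and all 3 fell (5.72% of all genes lower). These were *Ccnd1*, *Ccnd3* and *Cdkn1a*, and *Ccnd1* alone changed at least 1.5-fold (4.17% of all genes). Without 10 µM replicate 1, *Ccnd3* also passed with LPS, lower like 4 others, and 3 members passed at 32 µM. The comparisons of each dose with DMSO + LPS share those 2 control libraries, which the LPS comparison also uses. In bulk RNA, fewer cells of a type and less RNA per cell cannot be told apart.

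**Figure D1:**
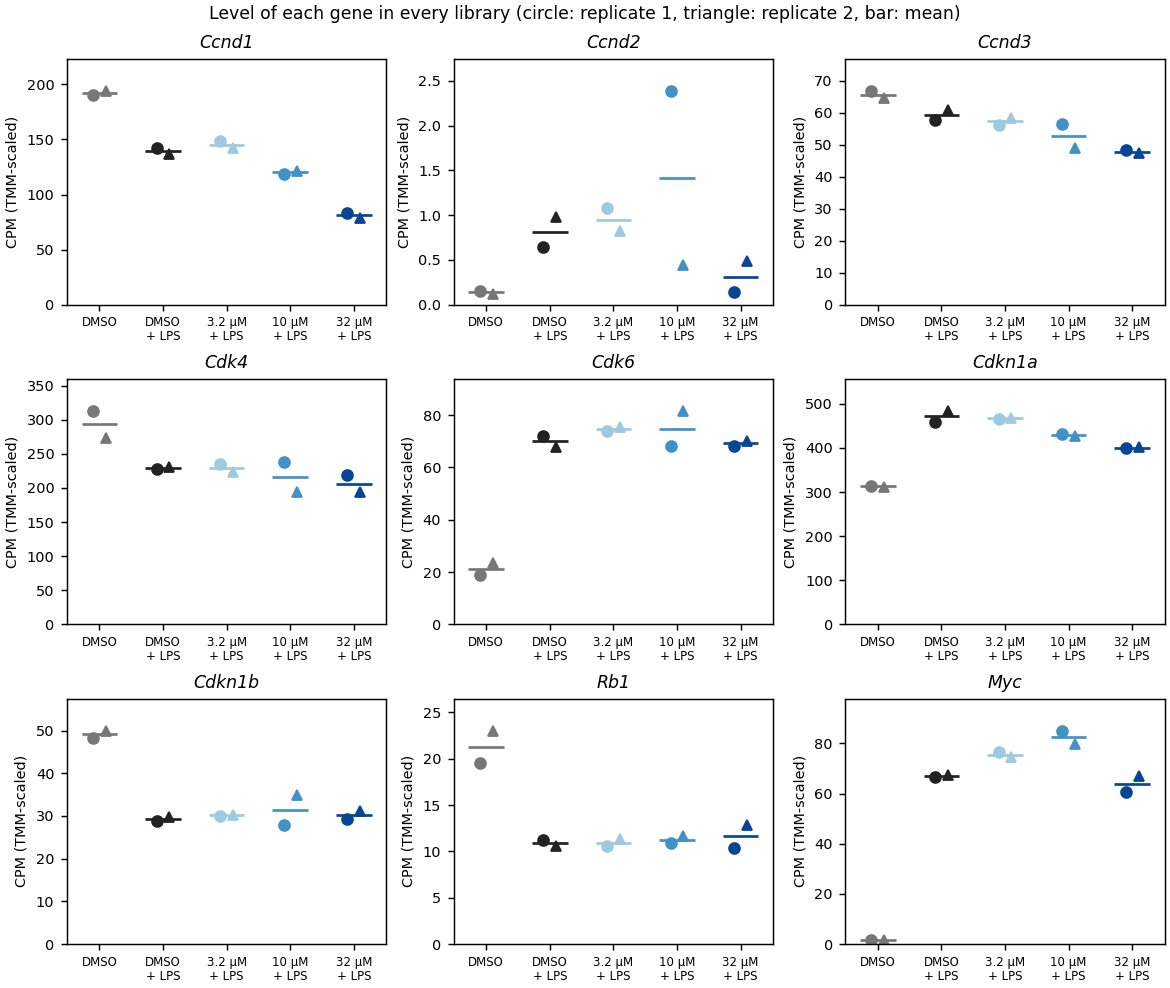
Level of each gene in CPM (linear axes from 0, a separate scale per gene) in the 10 libraries, with a circle for replicate 1, a triangle for replicate 2 and a bar for the mean of each condition. *Ccnd1* fell from a mean of 192 CPM in DMSO to 139 with LPS and 81.0 with LPS and 32 µM, whereas *Myc* went from 1.65 CPM to 67.0 with LPS and stayed between 60.7 and 85.1 in the libraries with compound.

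*Ccnd1* encodes cyclin D1 and lies on chromosome 7 (chr7:144929931-144939925, minus strand, mm10). Its level was 190 and 194 CPM in DMSO and 142 and 137 CPM in DMSO + LPS. With compound it was 149 and 142 CPM at 3.2 µM, 119 and 122 with 10 µM, and 83.1 and 78.9 with 32 µM. The libraries of DMSO lay above all others, those of 32 µM below all others, and those of 10 µM between the latter and the LPS control. LPS lowered *Ccnd1* 1.38-fold (log2 fold change -0.47 ± 0.047 SE, adjusted p = 7.60e-05). Compound 1 at 32 µM lowered it a further 1.72-fold relative to DMSO + LPS (log2 -0.78, 95% interval -0.89 to -0.67, adjusted p = 3.26e-05), and this call held under each of the 19 alternative settings. *Ccnd1* was thus the member with the largest change among the 3 that passed at 32 µM. Relative to DMSO, the cells with LPS and 32 µM had 2.37-fold less *Ccnd1* (log2 -1.25, adjusted p = 3.45e-07). The span of *Ccnd1*, introns included, shares 1771 nt with that of the gene *LTO1* on the opposite strand. The sources used here do not say whether strand was used in counting. Overlap of exons was not computed, here or for the genes below.

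The fall of *Ccnd1* lay mostly between 10 and 32 µM. At 10 µM its log2 change from DMSO + LPS was -0.21 (95% interval -0.32 to -0.10, adjusted p = 0.0702), and DESeq2 gave an adjusted p of 0.00416 for the same libraries. At 3.2 µM the value was 0.061 (-0.048 to 0.17, adjusted p = 0.999). The step from 10 to 32 µM was -0.57 (adjusted p = 6.16e-04), and the step from 3.2 to 10 µM was -0.27 (adjusted p = 0.0514), a value that passed in 6 of the 19 alternative settings, the fit with the replicate number as a block among them (adjusted p = 0.0447). Fitted on the 4 libraries of the 10 and 32 µM conditions alone, the former step kept its size at -0.57 with an adjusted p of 0.0912.

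*Ccnd3* encodes cyclin D3 (chr17:47505051-47599691, plus strand). The 2 libraries had 66.7 and 64.6 CPM in DMSO, 57.7 and 60.8 under LPS alone, 56.2 and 58.4 with 3.2 µM, 56.4 and 49.1 with 10 µM, and 48.3 and 47.3 with 32 µM. The 32 µM libraries were the lowest of the 10, and the replicates at 10 µM spread over most of the range between the 3.2 and 32 µM conditions. With LPS alone the log2 change was -0.15 (-0.31 to 0.015, adjusted p = 0.117), whereas scaling by library size alone gave -0.35 (adjusted p = 0.00282). It also passed with a score of short transcripts (the median centred level of genes under 1000 nt in each library) as a term of the fit (-0.22, adjusted p = 0.00268) and without either 10 µM library. At 32 µM *Ccnd3* fell 1.24-fold relative to DMSO + LPS (log2 -0.31, adjusted p = 0.0308). That call was lost when any of 7 libraries was left out: DMSO replicate 1 or either replicate of DMSO + LPS, 3.2 µM or 32 µM (adjusted p 0.0521 to 0.201, log2 -0.35 to -0.27). The span of *Ccnd3* shares 361 nt with that of *Bysl* on the opposite strand. The pseudogene *Ccnd3-ps* held 17 counts over the 10 libraries.

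*Ccnd2*, the gene of cyclin D2 (chr6:127125162-127152193, minus strand), was near the limit of detection. Its counts were 9 and 7 in DMSO, 37 and 46 under LPS alone, 50 and 41 with 3.2 µM, 111 and 20 with 10 µM, and 7 and 22 with 32 µM. It passed the filter on low counts only through LPS-treated libraries, so that a difference from DMSO was built into its being tested. The 111 counts belong to the 10 µM library that held epithelial transcripts. The fitted LPS change was 5.77-fold (log2 2.53, 95% interval 0.52 to 4.54, adjusted p = 0.0405), and the call was lost when either library of DMSO, DMSO + LPS or 3.2 µM was left out (adjusted p 0.0648 to 0.163) and when the score of short transcripts entered the fit (0.0583). At 10 µM the log2 change from DMSO + LPS was 0.80 with both libraries and -0.87 without replicate 1. Neither value passed, and at 32 µM the log2 change was -1.37 (-3.25 to 0.51, adjusted p = 0.398), and it was -0.73 without 32 µM replicate 1 and -2.48 without 32 µM replicate 2, neither of which passed.

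Per length, in CPM per kilobase of exon (RPKM), the D-type cyclin pool was almost wholly *Ccnd1* and *Ccnd3*. Length is that of all annotated exons (4709 nt for *Ccnd1*, 8775 nt over 21 transcripts for *Ccnd3*), not of the transcripts expressed. Sums and shares of genes therefore depend on the annotation, and in CPM *Ccnd1* and *Ccnd3* had means of 192 and 65.6 in DMSO. Their sum with *Ccnd2* was 48.1 and 48.6 RPKM in DMSO, 36.8 and 36.04 under LPS alone, 38.1 and 36.9 with 3.2 µM, 32.0 and 31.5 with 10 µM, and 23.2 and 22.2 with 32 µM. The pool of the 32 µM libraries was thus the smallest and that of DMSO the largest, with no overlap between these and any other condition. *Ccnd1* made up 84.2% and 84.8% of the pool in DMSO, 81.9% and 80.5% in DMSO + LPS, and 76.2% and 75.5% at 32 µM. The share of *Ccnd3* rose over the same conditions from 15.8% and 15.2% to 17.9% and 19.2% and to 23.8% and 24.3%, although its own level was lowest at 32 µM. *Ccnd2* made up at most 0.793% in any library. That library was 10 µM replicate 1, which held epithelial transcripts, and the highest share elsewhere was 0.301% (3.2 µM replicate 1).

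**Figure D2:**
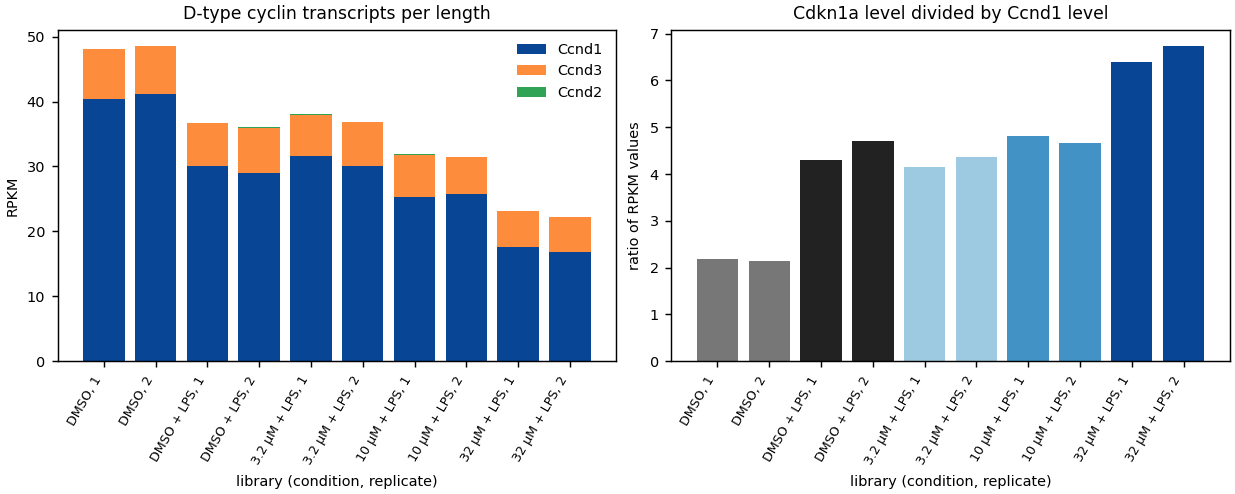
Left, stacked bars of the RPKM (per summed length of annotated exons) of *Ccnd1*, *Ccnd3* and *Ccnd2* in each library. The total falls from 48.1 and 48.6 RPKM in DMSO to 23.2 and 22.2 with 32 µM, and *Ccnd2* is barely visible. Right, bars of the RPKM of *Cdkn1a* divided by that of *Ccnd1* in each library, from 2.19 and 2.13 in DMSO to 6.39 and 6.73 with 32 µM.

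*Cdk4* encodes a kinase partner of the D-type cyclins (chr10:127063534-127067920, plus strand). It had 313 and 274 CPM in DMSO, 228 and 231 under LPS alone, 235 and 224 with 3.2 µM, 238 and 195 with 10 µM, and 219 and 193 with 32 µM. Both DMSO libraries lay above the LPS-treated ones, but they differed from each other by about as much as the lower of them differed from LPS. LPS lowered *Cdk4* 1.28-fold (log2 -0.35, 95% interval -0.61 to -0.10, adjusted p = 0.0255). The call was lost without DMSO replicate 1 (log2 -0.26, adjusted p = 0.142), without DMSO + LPS replicate 1 (0.109) and without DMSO + LPS replicate 2 (0.0930). Compound 1 at 32 µM gave a log2 change of -0.15 (-0.40 to 0.097, adjusted p = 0.496), which passed when the score of short transcripts entered the fit (-0.12, adjusted p = 0.0163) and was -0.25 without 32 µM replicate 1 and -0.068 without 32 µM replicate 2. The span of *Cdk4* shares 641 nt with that of *Tspan31* on the opposite strand.

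*Cdk6*, the gene of the second kinase of this pair (chr5:3341485-3531008, plus strand), moved the other way. Its level was 19.0 and 23.3 CPM in DMSO, 72.1 and 68.0 under LPS alone, 74.0 and 75.3 with 3.2 µM, 68.0 and 81.6 with 10 µM, and 68.3 and 70.3 with 32 µM. The 8 LPS-treated libraries lay far above both DMSO libraries and the doses overlapped except that 3.2 µM lay above DMSO + LPS and 32 µM. LPS raised *Cdk6* 3.31-fold (log2 1.72 ± 0.11 SE, adjusted p = 5.77e-06). At 32 µM the log2 change from DMSO + LPS was -0.016, with an interval of -0.27 to 0.24, so that a change within these bounds could not be seen. Relative to DMSO, *Cdk6* remained 1.71 log2 units higher at 32 µM (adjusted p = 7.02e-06). On the RPKM scale *Cdk6* was 1.39% and 1.94% of the *Cdk4* and *Cdk6* sum in DMSO and between 6.22% and 8.87% in every LPS-treated library. *Cdk4* thus stood above *Cdk6* throughout, as it did in CPM.

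The promoter windows of both kinases, from RefSeq on GRCm38.p6 (250 bases before the annotated start to 50 after it), are shown because one fell and the other rose with LPS while *Myc* rose. Windows were matched for 5 of the 9 members and not for *Ccnd1*, *Ccnd2*, *Rb1* and *Myc*. The start used for the *Cdk6* window lies inside the gene span given above, which begins at chr5:3341485, so the annotations differ there. Capitals mark the E-box CACGTG, the sequence bound by Myc with Max and by other factors of that class, and TGACNNNGC, the core of the antioxidant response element, read on both strands. Where they occur, the letters are those of the strand of the gene.
Cdk4 chr10:127063285-127063584: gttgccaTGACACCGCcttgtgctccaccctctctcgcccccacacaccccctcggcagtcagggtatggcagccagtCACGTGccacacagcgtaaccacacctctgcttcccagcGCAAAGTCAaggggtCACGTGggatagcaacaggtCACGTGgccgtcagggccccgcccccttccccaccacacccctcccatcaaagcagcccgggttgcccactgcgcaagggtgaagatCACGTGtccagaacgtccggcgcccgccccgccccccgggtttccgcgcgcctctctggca
Cdk6 chr5:3343643-3343942: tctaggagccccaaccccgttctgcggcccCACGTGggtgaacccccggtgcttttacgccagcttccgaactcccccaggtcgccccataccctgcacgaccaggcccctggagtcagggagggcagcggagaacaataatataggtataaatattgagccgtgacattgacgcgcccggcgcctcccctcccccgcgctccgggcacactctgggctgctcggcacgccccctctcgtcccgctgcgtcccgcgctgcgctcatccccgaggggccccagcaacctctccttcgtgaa
The *Cdk4* window held 4 E-boxes and 2 response element cores, and that of *Cdk6* held 1 E-box. Of all 32851 windows, 7.15% held at least 1 E-box and 8 (0.0244%) held 4 or more. These matches describe letters and not binding.

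*Cdkn1a* encodes p21 and was the inhibitor transcript with the highest level (chr17:29090976-29100727, plus strand). It had 314 and 312 CPM in DMSO, 460 and 484 under LPS alone, 466 and 468 with 3.2 µM, 432 and 427 with 10 µM, and 400 and 401 with 32 µM. The replicates at each dose were close together, and the levels at 10 and 32 µM lay between DMSO and DMSO + LPS without overlap. LPS raised *Cdkn1a* 1.51-fold (log2 0.59 ± 0.041 SE, adjusted p = 8.41e-06). The fold lay at the 1.5-fold limit and was below it with library size alone (log2 0.38), with the score of short transcripts, and without DMSO replicate 2 or DMSO + LPS replicate 2 (down to 0.55), while the adjusted p stayed below 0.05 in each. Compound 1 at 32 µM lowered it 1.18-fold relative to DMSO + LPS (log2 -0.24, -0.33 to -0.14, adjusted p = 0.00893), which left it 0.36 log2 units above DMSO (adjusted p = 1.75e-04). The 32 µM call was lost in the likelihood ratio test (log2 -0.24, adjusted p = 0.0723) and with the 4 libraries alone (-0.24, adjusted p = 0.0712). It was also lost without DMSO + LPS replicate 2 (log2 -0.20) or either 32 µM library (-0.23 and -0.24). At 10 µM the log2 change was -0.14 (adjusted p = 0.187 here and 0.0272 with DESeq2).

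The second *Cdkn1a* window of RefSeq is shown because its gene rose with LPS and fell with compound. Its capitals mark a response element core on the minus strand. This motif occurs at least once in 12.4% of all windows.
Cdkn1a chr17:29093519-29093818: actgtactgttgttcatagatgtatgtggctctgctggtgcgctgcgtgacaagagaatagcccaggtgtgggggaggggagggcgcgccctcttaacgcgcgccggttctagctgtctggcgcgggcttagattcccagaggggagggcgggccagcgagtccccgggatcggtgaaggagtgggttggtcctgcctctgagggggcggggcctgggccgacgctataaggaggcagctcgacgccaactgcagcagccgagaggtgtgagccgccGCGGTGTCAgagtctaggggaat
The first *Cdkn1a* window, upstream of this, and the second *Ccnd3* window held neither motif, while the first *Ccnd3* window and the *Cdkn1b* window held 1 response element core each.

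*Cdkn1b*, the gene of p27 (chr6:134920401-134925513, plus strand), fell with LPS. Its level was 48.3 and 49.99 CPM in DMSO, 28.8 and 29.8 under LPS alone, 30.0 and 30.2 with 3.2 µM, 27.9 and 34.9 with 10 µM, and 29.3 and 31.1 with 32 µM. DMSO stood clear of all LPS-treated libraries, which overlapped across doses except for the small gap between DMSO + LPS and 3.2 µM. LPS lowered *Cdkn1b* 1.68-fold (log2 -0.75, -0.97 to -0.52, adjusted p = 3.10e-04), and the value at 32 µM relative to DMSO + LPS was 0.047 (-0.18 to 0.27, adjusted p = 0.875), or 0.089 without 32 µM replicate 1 and 0.0023 without 32 µM replicate 2. The inhibitors of the CDKs thus parted with LPS, p21 transcripts upward and p27 transcripts downward. In RPKM, *Cdkn1a* divided by *Cdkn1b* gave 8.33 and 8.002 in DMSO and 20.4 and 20.8 under LPS alone. The size of such ratios depends on the annotated exon lengths. The ratio of *Cdkn1a* to *Ccnd1* was 2.19 and 2.13 in DMSO, 4.30 and 4.70 under LPS alone, and 4.15 and 4.37 with 3.2 µM. It was 4.81 and 4.65 with 10 µM, and 6.39 and 6.73 with 32 µM, the last because *Ccnd1* fell by more than *Cdkn1a*.

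*Rb1* encodes the retinoblastoma protein, the main substrate of the cyclin D kinases (chr14:73183673-73325822, minus strand). It had 19.5 and 23.0 CPM in DMSO, 11.3 and 10.5 under LPS alone, 10.6 and 11.3 with 3.2 µM, 10.9 and 11.6 with 10 µM, and 10.4 and 12.9 with 32 µM. The DMSO libraries were the highest of the 10, and the ranges of the 4 LPS-treated conditions overlapped. LPS lowered *Rb1* 1.95-fold (log2 -0.96 ± 0.12 SE, adjusted p = 2.62e-04), and 32 µM gave 0.092 relative to DMSO + LPS (-0.19 to 0.37, adjusted p = 0.772). The latter value ran from -0.071 (without 32 µM replicate 2) to 0.24 with 1 library left out. *Rcbtb2* and *Lpar6* overlap the span of *Rb1* on the opposite strand and held 7556 and 2900 counts over the 10 libraries against 6776 for *Rb1*. Whether their exons overlap those of *Rb1* was not computed. If strand was not used in counting, their part in the *Rb1* counts cannot be told.

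*Myc* (chr15:61985391-61990374, plus strand) had the largest LPS change of the 9 genes. Its level was 1.53 and 1.76 CPM in DMSO, 66.5 and 67.5 under LPS alone, 76.5 and 74.6 with 3.2 µM, 85.1 and 79.9 with 10 µM, and 60.7 and 66.9 with 32 µM. The libraries at 3.2 and 10 µM lay above the LPS control, and those at 32 µM overlapped it. LPS raised *Myc* 40.7-fold (log2 5.35, 5.14 to 5.55, adjusted p = 4.33e-09). Across doses *Myc* did not follow the order of *Ccnd1*. The log2 change from DMSO + LPS was 0.17 at 3.2 µM (adjusted p = 0.999), 0.30 at 10 µM (0.14 to 0.46, adjusted p = 0.0731) and -0.071 at 32 µM (-0.23 to 0.087, adjusted p = 0.656). The last was -0.0021 without 32 µM replicate 1 and -0.14 without 32 µM replicate 2. At 10 µM, *Myc* passed in DESeq2 (0.00723), in the likelihood ratio test (0.0422), with library size alone (0.0478) and with the score of short transcripts in the fit (0.00108). From 10 to 32 µM it fell by 0.37 on the log2 scale (adjusted p = 0.0300), a call that was lost without either library of DMSO + LPS, 3.2 µM or 32 µM and without the 10 µM replicate 1 that held epithelial transcripts (adjusted p 0.0525 to 0.177), and with the 4 libraries alone (0.352).

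**Figure D3:**
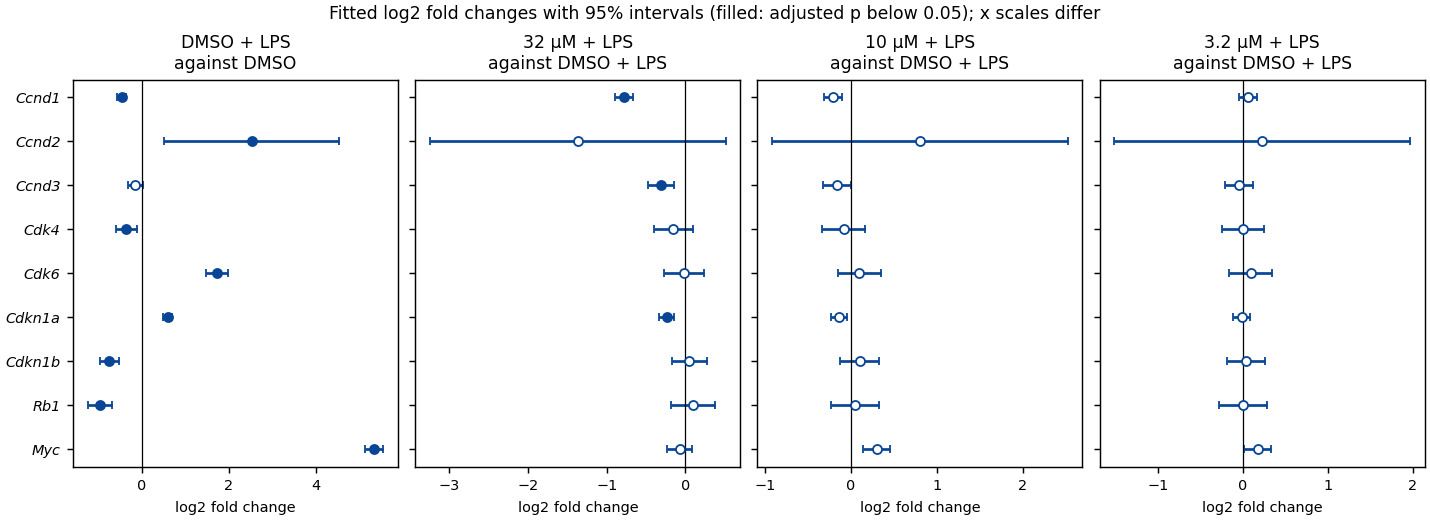
Fitted log2 fold change of each gene with its 95% interval in 4 comparisons, with filled points for adjusted p below 0.05 and a separate horizontal scale in each panel. LPS raised *Cdk6*, *Cdkn1a* and *Myc* and lowered 4 genes, the LPS point of *Ccnd2* rests on a gene below the count cutoff in DMSO, 32 µM lowered *Ccnd1*, *Ccnd3* and *Cdkn1a*, and the intervals of *Ccnd2* are the widest in every panel.

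The lower doses gave no call among the members in the report's fit. At 10 µM, the fit with the score of short transcripts passed 5 (*Ccnd1*, *Ccnd3*, *Cdk4*, *Cdkn1a* and *Myc*), DESeq2 3 and the likelihood ratio test 1. In edgeR's quasi-likelihood test without that score, 0 of 9 passed (2.67% of all genes), while 4 had an unadjusted p below 0.05. Without the 10 µM replicate 1 that held epithelial transcripts it was still 0 of 9, and the log2 change from DMSO + LPS went from -0.17 to -0.27 (*Ccnd3*), from -0.083 to -0.24 (*Cdk4*), from 0.096 to 0.22 (*Cdk6*), from 0.10 to 0.25 (*Cdkn1b*) and from 0.046 to 0.090 (*Rb1*). At 3.2 µM, 0 of 9 passed, as did 0% of all genes (0 of 14172), with 1 member at an unadjusted p below 0.05, 0 in DESeq2, 0 in the likelihood ratio test and 1 (*Myc*) in a fit of the 4 libraries compared. Between 10 and 32 µM, *Ccnd1* and *Myc* passed (2 of 9, against 2.76% of all genes), and both were lower at 32 µM. Between 3.2 and 10 µM, 0 of 9 passed (0.903% of all genes) with 2 at an unadjusted p below 0.05 and 1, *Ccnd1*, in DESeq2. Relative to DMSO, the cells with LPS and 32 µM differed in 8 of 9 members (50.9% of all genes), with *Cdk6*, *Cdkn1a* and *Myc* higher and *Ccnd1*, *Ccnd3*, *Cdk4*, *Cdkn1b* and *Rb1* lower. *Ccnd2* was the member that did not pass there.

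Ranks per length rest on the summed annotated exons of each gene and so depend on the annotation. On that scale, the order of the 9 genes shifted with LPS. In DMSO it ran from *Cdk4* (90.3 ± 8.54 RPKM, SD, n = 2) and *Cdkn1a* (88.1 ± 0.355) through *Ccnd1* (40.8), *Cdkn1b* (10.8), *Ccnd3* (7.48), *Rb1* (3.54), *Cdk6* (1.51) and *Myc* (0.606) to *Ccnd2* (0.0147). *Cdk4* and *Cdkn1a* did not differ beyond their spread. In DMSO + LPS *Cdkn1a* stood first (132.8 ± 4.86), before *Cdk4* (70.6), *Ccnd1* (29.6), *Myc* (24.7), *Ccnd3* (6.75 ± 0.254), *Cdkn1b* (6.43 ± 0.151), *Cdk6* (5.01), *Rb1* (1.81) and *Ccnd2* (0.0864). *Ccnd3* and *Cdkn1b* differed there by less than the sum of their SDs. *Myc* stood above *Ccnd1* at 10 µM (30.4 ± 1.37 against 25.5 ± 0.384) and at 32 µM (23.5 ± 1.61 against 17.2 ± 0.616), the reverse of their order in DMSO + LPS and at 3.2 µM (27.8 ± 0.506 against 30.8 ± 1.01).

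The other genes of the G1 network were taken from lists written for the pathway, each described by its counts. Of all genes, 25.2% rose and 25.8% fell with LPS (median log2 change 0.0026), 9.78% passed at 32 µM (median 0.0082) and 2.67% at 10 µM, and several list counts lie near these shares. E2F targets, the DNA replication and nucleotide synthesis genes that released E2F turns on, fell with LPS in 14 of 14, with a median log2 change of -1.06. *Tk1*, thymidine kinase, fell from 46.1 ± 5.4 to 8.06 ± 0.31 CPM (SD, n = 2, log2 -2.52, adjusted p = 3.88e-07), and *Rrm2* (-1.68), *Cdc6* (-1.54) and *Mcm7* (-1.27) followed in size. At 32 µM, 6 of the 14 fell further and 0 rose, with a median of -0.19 (4 of 14 without 32 µM replicate 2, *Rrm2* no longer among them). *Mcm6*, a subunit of the replicative helicase, went from 65.7 ± 2.1 to 41.9 ± 3.0 CPM (log2 -0.65, adjusted p = 3.40e-04), and *Cdc6*, which loads that helicase, changed by -0.56 and *Rrm2* by -0.38. At 10 µM 0 of the 14 passed in edgeR, with 4 at an unadjusted p below 0.05 and 1 in DESeq2, and at 3.2 µM all 3 counts were 0. From 10 to 32 µM 2 of the 14 fell, *Mcm6* (-0.41) among them, and *Mcm6* alone without 10 µM replicate 1 or without 32 µM replicate 2.

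Of the 12 pocket proteins and E2F factors beside *Rb1*, 9 fell with LPS and 0 rose (median -1.10). *E2f8* (-2.40), *E2f2* (-2.26), *E2f7* (-2.16) and the E2F partner *Tfdp2* (-1.71) changed most. *E2f2*, an activating factor, went from 33.3 ± 1.8 to 6.95 ± 0.62 CPM and had 8.52 ± 0.18 CPM at 32 µM. At 32 µM 0 of the 12 passed, with 1 at an unadjusted p below 0.05 and 0 in DESeq2. Among the cyclins and kinases that act after cyclin D, 5 of 9 tested fell with LPS and 1 rose (7 and 0 with library size alone, 5 and 2 with DESeq2 size factors or without 10 µM replicate 1), led by *Ccna2* (cyclin A2, -2.81), *Ccne2* (cyclin E2, -2.06), *Ccne1* (cyclin E1, -1.06) and *Cdk2* (-0.84). Both cyclin E genes fell further at 32 µM, *Ccne1* from 18.7 ± 1.4 to 12.7 ± 0.70 CPM (log2 -0.56, adjusted p = 0.00249) and *Ccne2* from 6.45 ± 0.54 to 4.35 ± 0.027 CPM (log2 -0.57, adjusted p = 0.00459). They also fell between 10 and 32 µM (-0.45 and -0.57), *Ccne2* alone without 10 µM replicate 1 and neither without 32 µM replicate 2.

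Of the 5 other CDK inhibitors, 2 had enough counts to be tested, and both fell with LPS. *Cdkn2c*, the gene of p18, went from 44.5 ± 2.8 to 13.6 ± 1.1 CPM (log2 -1.71, adjusted p = 5.35e-06), and *Cdkn2d*, the gene of p19, changed by -0.57. At each dose 0 of the 2 passed relative to DMSO + LPS, with 0 at an unadjusted p below 0.05 and 0 in DESeq2. *Cdkn2a* had 0 counts in all 10 libraries. *Cdkn1c* had 3 counts and *Cdkn2b* 11 in the 10 µM library with epithelial transcripts, against 0 for each in the other replicate. The genes for turnover of p27 and cyclins had 2 higher and 3 lower of 9 with LPS, but 0 higher and 4 lower with library size alone, and 1 higher and 3 lower without 10 µM replicate 1. *Skp2* (-0.93) and its partner *Cks1b* (-0.91), which mark p27 for degradation, fell, as did *Fbxo31* (-0.41), and *Fbxw7*, which targets cyclin E, rose (0.40), a call lost with library size alone (0.19, adjusted p = 0.163). At 32 µM 0 of the 9 passed, with 2 at an unadjusted p below 0.05 and 0 in DESeq2.

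In the Myc network, 4 of the 11 genes past the count cutoff in both groups rose with LPS and 4 fell. *Mycn*, a relative of *Myc*, fell from 614 ± 5.1 to 158 ± 4.3 CPM (log2 -1.96, adjusted p = 1.30e-08), while *Mycl*, which passed the filter only through LPS-treated libraries, went from 0 and 0 counts to 103 and 69. Of the Max partners that oppose Myc, *Mxd1* rose (1.87) and *Mxd4* fell (-2.02). *Mxi1* went down from 58.3 ± 1.8 to 25.0 ± 0.25 CPM with LPS and *Mnt* from 63.6 ± 0.39 to 54.8 ± 1.0 CPM. Compound 1 at 32 µM lowered *Mxd1* from 26.6 ± 0.69 to 16.0 ± 0.56 CPM (log2 -0.74, adjusted p = 5.36e-04) and *Max*, the partner of Myc, from 180 ± 4.8 to 139 ± 6.1 CPM (log2 -0.37, adjusted p = 0.0101), the latter call being lost without 32 µM replicate 2. Of 10 genes known as targets of Myc, 4 rose and 2 fell with LPS. *Odc1*, ornithine decarboxylase of polyamine synthesis, rose from 176 ± 2.9 to 2206 ± 22 CPM (log2 3.65), *Npm1* rose (0.36), and *Cad* (-0.50) and *Nolc1* (-0.34) fell. *Odc1* was the 1 target that passed at 32 µM (-1.61, adjusted p = 5.21e-07) and at 10 µM (-0.94, adjusted p = 5.01e-05), where *Myc* itself gave -0.071 and 0.30. With library size alone, 2 of the 10 targets rose with LPS and 4 fell.

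Among p53 and its targets, the list that holds the best known regulator of *Cdkn1a*, 3 of 14 rose with LPS and 8 fell (median -0.37). With library size alone, 3 rose and 9 fell. *Mdm2*, a target in this list, went up from 131 ± 7.4 CPM in DMSO to 255.5 ± 2.6 in DMSO + LPS. *Gadd45a* rose (2.20), whereas *Trp53inp1* (-2.32), *Sesn1* (-1.70) and *Phlda3* (-1.39) fell, and *Sesn2* (-0.36) and *Btg2* (-0.23) fell at 32 µM, *Sesn2* alone without 32 µM replicate 2. At that dose 5 of the 14 had an unadjusted p below 0.05 and DESeq2 passed 3. *Pmaip1*, a p53 target that promotes cell death, had a log2 change of 0.51 (adjusted p = 0.0586), which passed without 10 µM replicate 1 (adjusted p = 0.0130). Of 10 signal inputs to G1 genes, 4 rose and 4 fell with LPS, led by *Tob1* (-1.59), *Tgfb1* (0.89), *Klf4* (0.83) and *Foxo1* (-0.81). At 32 µM, *Egr1*, an early growth response factor, fell from 27.1 ± 0.52 to 15.4 ± 0.42 CPM (log2 -0.82, adjusted p = 1.33e-04), and *Klf4* (0.50) and *Ctnnb1*, the gene of beta-catenin that can drive *Ccnd1*, rose (0.29, adjusted p = 0.00140), *Klf4* not without 32 µM replicate 2. In the same comparison 5 of the 8 macrophage markers fell and 1 rose (*Fcgr1* -1.70, *Mrc1* -0.93, *Itgam* -0.67, *Lyz2* -0.61), and the part of this in the G1 results was not tested.

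**Figure D4:**
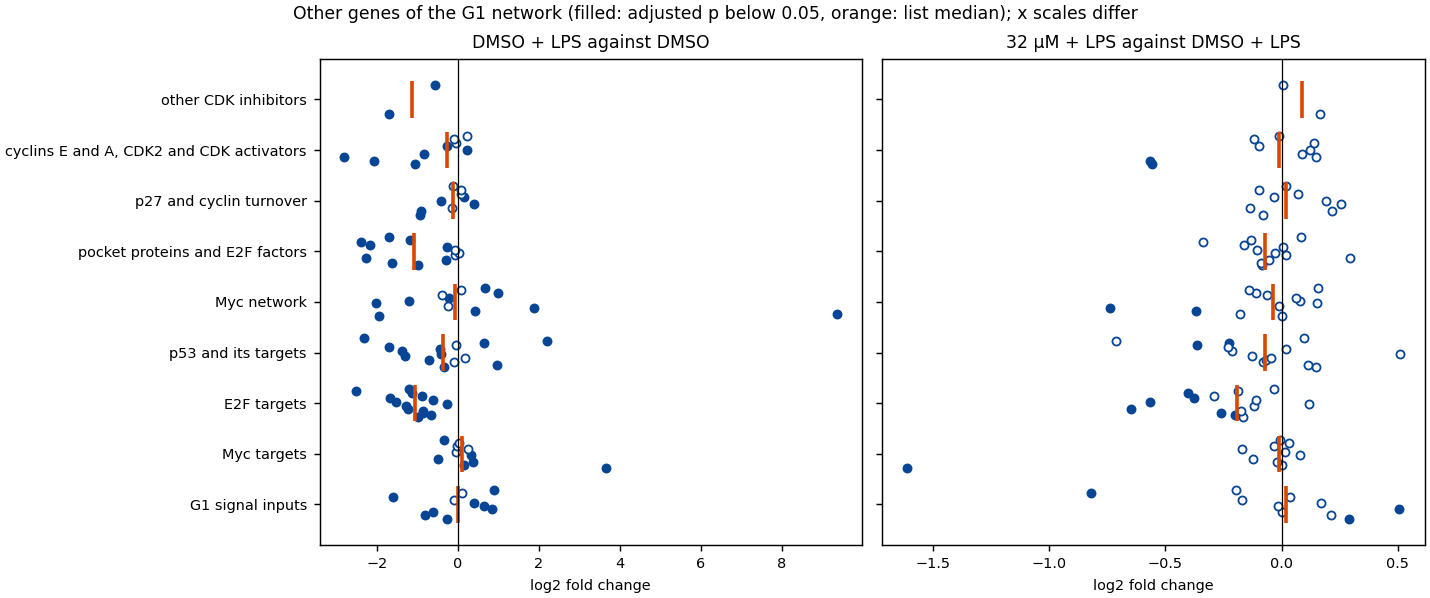
Log2 fold change of every tested gene in 9 lists of the G1 network for LPS (left) and for 32 µM (right), with filled points for adjusted p below 0.05, orange bars for list medians and a separate horizontal scale in each panel. All 14 E2F targets lie left of 0 with LPS, and *Odc1* is the lowest point at 32 µM (-1.61).

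The LPS values depend on the scale. With library size alone, the median log2 change of all genes with LPS shifted by -0.21, and 35.1% of the genes called at 1.5-fold were higher, against 51.8% here. The direction of all 9 members was the same on both scales, and E2F targets were lower in 14 of 14 on both.

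Across the 10 libraries, the genes whose log2 CPM followed each member most closely were ranked by Pearson r among 9561 or 9562 genes with a mean of at least 5 CPM. For *Ccnd1* these were *mt-Cytb* (0.980), *St3gal6* (0.973) and *Tifab* (0.972), and for *Ccnd3* they were *Cenpb* (0.978), *Unc93b1* (0.978) and *Srsf7* (0.972). *Cdkn1a* was followed by *Mafk* (0.997), *Furin* (0.996) and *Psma6* (0.995). *Myc* was followed by *Spryd7* (0.9995), *Ptpn22* (0.9994) and *Ier3* (0.9992), and *Cdk6* by *Ptpre* (0.998), *Ube2d3* (0.997) and *Flrt2* (0.997). For *Cdkn1b* they were *Eif2ak3* (0.992), *Wdr76* (0.991) and *Magi1* (0.991), for *Rb1* *Alg6* (0.996), *Pdik1l* (0.995) and *Stim1* (0.994), and for *Cdk4* *Raet1d* (0.989), *Tspan4* (0.985) and *Ebp* (0.985). *Ccnd2* had the loosest matches, *Mettl18* (0.956), *Arhgap1* (0.890) and *Tmem192* (0.886). The points share the step from DMSO to LPS, and likeness within the LPS-treated libraries was not computed.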

How the data were processed

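RNA-seq counts from 10 RAW264.7 libraries were used. Libraries were stranded and made from poly(A) RNA. The deposited values are raw counts of reads per Ensembl gene, which the authors did not normalize. The submitters' processing notes name Trimmomatic, FastQC, STAR, DESeq2 and mm10, without versions. The counting tool, its annotation and its use of strand are not given in the sources used here. Of 43432 genes, 42462 identifiers matched a symbol in GENCODE M21, which also gave positions and summed exon lengths.

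Genes were filtered by filterByExpr (minimum count 10, 14172 genes), normalized with TMM factors and modelled in edgeR 4.0.16 (R 4.3.3) with 1 mean per condition and 5 residual degrees of freedom. Quasi-likelihood F tests gave p-values, adjusted by Benjamini-Hochberg over all genes, and 95% intervals. CPM uses the scaled library total, and RPKM divides it by summed exon length. Intervals of counting error cover sampling of reads alone. The steps were tested on simulated data.

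The members, the pathway lists and the alternatives were chosen with earlier results of these data known. The genes named are the members, up to 4 genes per list and comparison with the largest change among those that passed, the 3 genes most like each member, LPS-induced control genes and cell type markers. A few list genes with other values were named after their values were seen. A list gene that met this rule is not reported here by name. The alternatives were other scalings (library size alone or the size factors of DESeq2), other filters (none, or a mean of at least 5 CPM), a fit with the replicate number or with a score of short transcripts (under 1000 nt), DESeq2 1.42.0 (Wald test), the likelihood ratio test, the 4 libraries compared, no fold cutoff, and each library left out in turn, the lone library of a condition being taken to vary like the others. List counts under some of these settings, and counts of genes past the count cutoff in both groups compared, were added after the values were seen.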

Additional observations from a re-analysis of the deposited data

How the results depend on the processing

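Over the 9 members, 7 comparisons and 19 alternatives, 1189 fold changes were recomputed. Of these, 1083 kept their direction and their side of the threshold, 31 lost their call, 25 gained one and 50 changed direction. None of the 50 had passed (lowest adjusted p 0.772). The causes were not tested. Counts limited to genes past the count cutoff in both groups, chosen after seeing the data, stayed within 1.5 times in all 7 comparisons (7 members with LPS). With 2 libraries a condition, changes smaller than the intervals given cannot be seen.

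Genes called at 1.5-fold with LPS were 3989, and 2635 at a mean of at least 5 CPM. Those at 32 µM against DMSO were 3840, and 2541 at that mean. Without a fold cutoff the counts were 7220 with LPS, 1386 at 32 µM, 378 at 10 µM, 391 for 32 against 10 µM, 128 for 10 against 3.2 µM and 7208 for 32 µM against DMSO. The 122 called at 10 µM became 230 with the short-transcript score, 41 with the 4 libraries and 52 (without DMSO + LPS replicate 1) to 227 (without 10 µM replicate 2) with 1 library left out. The 0 at 3.2 µM became 1 without a filter, 6 with the score, 8 in DESeq2's Wald test, 3 in the likelihood ratio test, 66 with the 4 libraries and 0 to 1 with 1 left out. The 187 for 32 against 10 µM became 295 with the score and 5 with the 4 libraries. The 36 for 10 against 3.2 µM became 108 with the score, 61 in the likelihood ratio test, 0 with the 4 libraries and 5 to 66 with 1 left out.

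Members passing at 32 µM (3) were 1 to 3 with 1 library left out, the 1 without DMSO + LPS replicate 2 or either 32 µM library. At 10 µM (0) there were 5 with the score, 3 in the Wald test and 1 each in the likelihood ratio test, at the mean of 5 CPM and with library size alone. At 3.2 µM (0) there was 1 with the 4 libraries. For 32 against 10 µM (2) there were 0 with the 4 libraries and 1 to 3 with 1 left out, 3 without 10 µM replicate 2 and 1 without either library of DMSO + LPS, 3.2 µM or 32 µM or without 10 µM replicate 1. For 10 against 3.2 µM (0) there were 2 with the score and 1 each with DESeq2's size factors, without a filter, at the mean of 5 CPM and in the Wald test.

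No source ties the replicate numbers to a shared batch. Same-numbered deviations correlated between 0.30 and 0.83 in the 6 pairs of conditions without DMSO + LPS and between -0.42 and -0.17 in the 4 with it, so the numbers were not taken to pair the libraries. With the replicate number as a block, 1 member (*Ccnd1*, -0.27, adjusted p = 0.0447) passed for 10 against 3.2 µM, and no other member count changed. As the deviations of DMSO + LPS ran the other way, such a block cannot take up a shared deviation in full, and no conclusion is drawn from it. The block turned *Cdk4* (-0.0018) and *Rb1* (-0.0011) at 3.2 µM and *Cdk6* for 10 against 3.2 µM (-0.00036).

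The largest turned log2 values were those of *Ccnd2* without 10 µM replicate 1, -0.87 at 10 µM and -1.09 for 10 against 3.2 µM. *Cdk4* at 3.2 µM, 0.00036 in the report's fit, was -0.0031 with DESeq2's size factors and in its Wald test, -0.0075 with library size, -0.014 without a filter, -0.0039 at the mean of 5 CPM, -0.068 with the score, -0.0015 with the 4 libraries and -0.035 to 0.035 with 1 left out. *Rb1* at 3.2 µM was -0.0036 with library size, -0.0098 without a filter, -0.00018 at that mean and -0.045 to 0.055 with 1 left out. With the score, *Ccnd2* at 3.2 µM was -0.059, *Rb1* -0.017 for 32 against 10 µM and -0.0059 for 10 against 3.2 µM, and *Cdk6* -0.040 for the latter, where it was -0.0031 without a filter.

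With 1 library left out, ranges that crossed 0 were -0.058 to 0.028 (*Cdk6*) and -0.071 to 0.24 (*Rb1*) at 32 µM. At 10 µM they were -0.87 to 1.54 (*Ccnd2*), -0.24 to 0.032 (*Cdk4*), -0.065 to 0.22 (*Cdk6*), -0.092 to 0.25 (*Cdkn1b*) and -0.023 to 0.095 (*Rb1*). At 3.2 µM they were -0.047 to 0.55 (*Ccnd2*) and -0.052 to 0.022 (*Cdkn1a*). For 32 against 10 µM they were -0.20 to 0.082 (*Cdk4*), -0.24 to 0.033 (*Cdk6*), -0.21 to 0.12 (*Cdkn1b*) and -0.11 to 0.19 (*Rb1*). For 10 against 3.2 µM they were -1.09 to 1.32 (*Ccnd2*), -0.24 to 0.043 (*Cdk4*), -0.15 to 0.13 (*Cdk6*), -0.12 to 0.21 (*Cdkn1b*) and -0.016 to 0.089 (*Rb1*).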
